A study of Mus musculus with 14 samples.

Results

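The subject is a list of 38 genes of endothelial cells, the cells that line blood and lymphatic vessels, followed across populations of sorted embryonic limb cells. The members were taken by gene symbol from a list of endothelial genes, and 38 of 38 were found among the 21734 named genes of the array table. That list was chosen with earlier results of these data known. Counts of members beside shares of all genes are therefore a description. Embryonic limbs (C57BL/6 strain, stage E16.5) were digested with enzymes, freed of red cells and sorted for the tetraspanin CD9 in every population. CD73, the enzyme product of Nt5e that releases adenosine outside the cell, and the glycoprotein Thy1 then set 4 populations of osteochondroprogenitors (OCP), precursors of cartilage and bone. Cells with both markers made up OCP4 (CD9+CD73+Thy1+, 4 arrays), and cells with CD73 alone OCP1 (CD9+CD73+Thy1-, 3 arrays). Cells with Thy1 alone made up OCP3 (CD9+CD73-Thy1+, 4 arrays), and cells with neither OCP2 (CD9+CD73-Thy1-, 3 arrays). The labels name no endothelial marker among those sorted on, and do not say whether embryos were pooled. Values are log2 intensity on Affymetrix Mouse Gene 1.0 ST arrays, so a difference of 1 is a 2-fold difference, and means are given with the SD over the arrays of a group.

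Endothelial cells are held together by VE-cadherin and its partners, answer to vascular endothelial growth factor (VEGF) and to angiopoietins through receptor tyrosine kinases, and are specified by ETS and SoxF transcription factors. Lymphatic endothelium buds from veins under Prox1 and carries VEGF receptor 3 and the hyaluronan receptor Lyve1. In the embryonic limb, vessels run through the tissue around the cartilage and enter the bone as it forms. In bulk samples of sorted cells, fewer endothelial cells and less RNA per cell cannot be told apart.

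Promoter sequences are shown for members of both main patterns described further on, since ETS factors are the textbook regulators of endothelial promoters. Of the 38 members, 19 matched an entry of the RefSeq promoter table (build GRCm38.p6, from 250 bases before to 50 bases after the transcription start), which gave 23 promoters of 300 bases. The letters CCGGAA and AGGAAG, which are ETS-type core motifs, were searched on both strands and stand in capitals. At least 1 of them was present in 14 of 23 member promoters (60.9%), against 14848 of 32851 promoters of the whole table (45.2%). Counted separately, CCGGAA was in 5 of 23 (21.7%, against 14.9% of all promoters) and AGGAAG in 11 of 23 (47.8%, against 35.4%). The SOX letters ACAAAG and ACAATG were present in 6 of 23 (26.1%, against 28.6%), and the GATA letters AGATAA in 1 of 23 (4.35%, against 11.2%). The promoters of Kdr (chr5:75978406-75978705, minus strand) and Eltd1, now named Adgrl4 (chr3:151437632-151437931, plus strand), belong to genes that were highest in OCP2. Those of Flt4 (chr11:49609429-49609728, plus strand), Mmrn1 (chr6:60944067-60944366, plus strand) and Calcrl (chr2:84425217-84425516, minus strand) belong to genes that were highest in OCP3.
Kdr: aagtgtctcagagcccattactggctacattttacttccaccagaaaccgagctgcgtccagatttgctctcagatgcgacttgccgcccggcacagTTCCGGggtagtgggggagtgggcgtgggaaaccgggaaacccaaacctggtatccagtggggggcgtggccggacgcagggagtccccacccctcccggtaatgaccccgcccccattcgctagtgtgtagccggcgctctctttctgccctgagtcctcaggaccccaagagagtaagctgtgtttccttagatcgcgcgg
Eltd1: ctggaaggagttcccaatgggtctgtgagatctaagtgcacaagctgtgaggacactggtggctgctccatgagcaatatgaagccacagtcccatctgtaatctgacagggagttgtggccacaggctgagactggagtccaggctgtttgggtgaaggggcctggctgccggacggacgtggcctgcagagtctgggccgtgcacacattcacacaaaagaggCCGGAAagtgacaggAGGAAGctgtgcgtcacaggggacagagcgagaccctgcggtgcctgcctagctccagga
Flt4: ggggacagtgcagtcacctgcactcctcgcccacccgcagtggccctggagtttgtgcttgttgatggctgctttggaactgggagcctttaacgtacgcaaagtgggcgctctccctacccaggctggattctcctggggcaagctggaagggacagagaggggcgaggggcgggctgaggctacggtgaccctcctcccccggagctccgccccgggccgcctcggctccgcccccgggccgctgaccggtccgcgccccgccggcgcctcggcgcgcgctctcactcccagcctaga
Mmrn1: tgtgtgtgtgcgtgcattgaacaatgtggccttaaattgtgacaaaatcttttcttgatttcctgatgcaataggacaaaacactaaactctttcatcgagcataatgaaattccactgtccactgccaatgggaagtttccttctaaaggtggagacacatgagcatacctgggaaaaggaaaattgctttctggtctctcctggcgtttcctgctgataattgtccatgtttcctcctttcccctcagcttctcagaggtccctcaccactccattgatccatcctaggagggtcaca
Calcrl: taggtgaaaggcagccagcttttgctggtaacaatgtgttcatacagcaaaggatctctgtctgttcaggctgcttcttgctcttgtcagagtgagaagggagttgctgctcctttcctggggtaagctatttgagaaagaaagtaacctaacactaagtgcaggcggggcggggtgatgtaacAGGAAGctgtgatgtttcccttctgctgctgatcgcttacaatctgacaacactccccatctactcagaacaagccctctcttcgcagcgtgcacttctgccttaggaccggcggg
Among the 26 members with their highest mean in OCP2, 12 had an entry and 9 of these held ETS letters in a promoter. Among the 8 with their highest mean in OCP3, 5 had an entry and 2 held the letters, Calcrl and Flt1, while Flt4, Mmrn1 and Prox1 did not. Both groupings go by the highest mean, whether or not a difference was called. Of members called above each other group, the letters were in 4 of 5 with an entry for OCP2 and in 1 of 4 for OCP3. These counts are per gene over any of its promoters, unlike the shares above, and were not made over all genes. A match is a description of letters in this window and says nothing on binding, and the shares rest on few promoters, of which those of Prnd overlap each other.

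The sort showed in the arrays. Nt5e averaged 13.19 ± 0.16 in OCP4 and 12.29 ± 0.16 in OCP1, against 9.46 ± 0.44 in OCP3 and 9.30 ± 0.15 in OCP2. Thy1 averaged 13.22 ± 0.07 in OCP4, 9.33 ± 0.11 in OCP1, 12.60 ± 0.12 in OCP3 and 9.60 ± 0.36 in OCP2. The 10 skeletal and mesenchymal markers of the labelled cells exceeded the dim level of 9 log2 units in the mean of at least 1 group, with list means from 11.87 to 12.56 on single arrays. By group the list averaged 11.98 in OCP4, 12.55 in OCP1, 12.20 in OCP3 and 11.98 in OCP2. Of the 38 endothelial genes, 34 exceeded 9 log2 units, the median level of all genes, in the mean of at least 1 group, and Sox17, Esm1, Vwf and Nos3 did not. Blood cell markers were mostly below that level in every group: 7 of 9 haematopoietic genes (Ptprc, the pan-leukocyte antigen CD45, averaged 7.06 to 7.21), 7 of 8 platelet genes and 9 of 10 erythroid genes. The others were Fcer1g (9.24 in OCP1 to 9.99 in OCP4, F-test adjusted p = 0.0153), Laptm5 (9.32 in OCP1 to 9.81 in OCP4), Pf4 (9.01 in OCP4) and Alas2 (9.42 in OCP4).

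**Figure D1:**
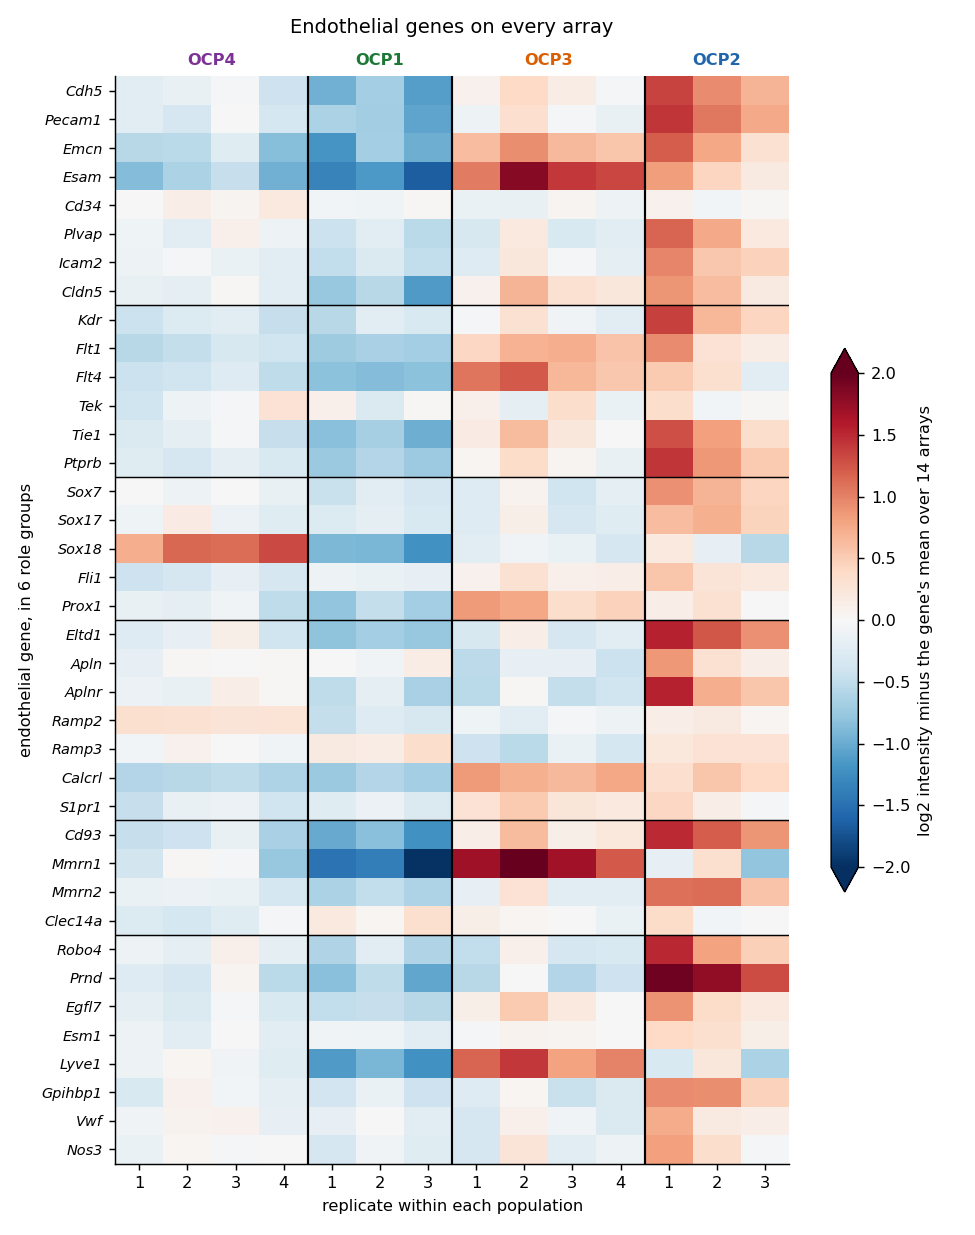
Every array is a column, grouped by population with replicate numbers below, and every endothelial gene is a row in 6 role groups; colour is log2 intensity minus the mean of that gene over 14 arrays. Most rows are highest in OCP2 and lowest in OCP1, Esam, Flt4, Mmrn1, Lyve1, Calcrl and Prox1 are highest in OCP3, and Sox18 is highest in OCP4.

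Endothelial transcripts differed widely among the populations. The highest group mean was in OCP2 for 26 of the 38 genes, in OCP3 for 8, in OCP4 for 3 and in OCP1 for 1, and the lowest was in OCP1 for 29. A moderated F-test over the 4 groups (limma, adjusted over all 21734 genes) called 36 of 38 members, while it called 39.5% of all genes. The exceptions were Tek (adjusted p = 0.774) and Cd34 (adjusted p = 0.0902). For 25 of the called members the highest and lowest group means lay at least 1 log2 unit apart, and in 25 of these 25 the lowest mean was that of OCP1. Of the same 25, the highest mean was in OCP2 for 17, in OCP3 for 7 and in OCP4 for 1. The range of group means had a median of 1.27 log2 units over the 38 members, against 0.21 over all genes. Shares of all genes by highest group, lowest group or a range of 1 log2 unit were not counted. Those counts therefore describe the members alone. Members higher in OCP2 than in each of the other groups by the pairwise limma tests numbered 16 of 38, against 1.48% of all genes. The corresponding counts were 6 in OCP3 (3.68% of all genes), 1 in OCP4 (5.49%) and 0 in OCP1 (2.19%). The mean level of the 38 genes on single arrays was 9.43 to 9.64 in OCP4, 9.06 to 9.25 in OCP1, 9.73 to 10.06 in OCP3 and 9.93 to 10.49 in OCP2.

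Of 8 junction and surface genes, 7 were lower in OCP1 than in OCP2, against 6.56% of all genes. Cdh5, which encodes VE-cadherin, the adhesion molecule of endothelial adherens junctions, read 11.29, 11.37, 11.48 and 11.11 in OCP4, 10.56, 10.83 and 10.41 in OCP1, 11.61, 11.91, 11.66 and 11.48 in OCP3, and 12.87, 12.47 and 12.19 in OCP2. Each OCP2 array was above every array of the other groups and each OCP1 array below them. The difference of OCP1 from OCP2 was -1.91 ± 0.16 (log2, SE), or 3.75-fold lower (limma adjusted p = 6.25e-06). Pecam1, the platelet and endothelial adhesion molecule CD31, read 9.45, 9.34, 9.69 and 9.32 in OCP4, 9.04, 8.99 and 8.62 in OCP1, 9.57, 10.02, 9.65 and 9.53 in OCP3, and 11.11, 10.73 and 10.44 in OCP2. The OCP2 arrays again stood above all others, and OCP4 and OCP3 overlapped. Icam2, an adhesion molecule that endothelium displays constitutively, read 8.47, 8.53, 8.44 and 8.37 in OCP4, 8.08, 8.28 and 8.09 in OCP1, 8.32, 8.81, 8.56 and 8.40 in OCP3, and 9.56, 9.11 and 9.04 in OCP2, a narrower range with OCP2 on top. Plvap, the protein of the diaphragms of fenestrae and caveolae, read 9.05, 8.93, 9.24 and 9.04 in OCP4, 8.70, 8.93 and 8.60 in OCP1, 8.82, 9.33, 8.83 and 8.91 in OCP3, and 10.30, 9.90 and 9.34 in OCP2. Its lowest OCP2 array exceeded the highest OCP3 array by a small margin, and OCP4, OCP3 and the upper OCP1 values ran together.

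Cldn5, a claudin of endothelial tight junctions, read 9.70, 9.66, 9.86 and 9.61 in OCP4, 9.09, 9.29 and 8.71 in OCP1, 9.93, 10.52, 10.15 and 10.07 in OCP3, and 10.72, 10.46 and 10.02 in OCP2. OCP3 and OCP2 overlapped (difference -0.23 ± 0.17, limma adjusted p = 0.426), and OCP1 was lowest. Emcn, endomucin, a sialomucin of capillaries and veins, read 10.28, 10.29, 10.59 and 9.99 in OCP4, 9.66, 10.15 and 9.86 in OCP1, 11.45, 11.76, 11.48 and 11.39 in OCP3, and 12.04, 11.61 and 11.14 in OCP2. The means of both CD73- groups were more than 1 log2 unit above those of both CD73+ groups, and OCP3 and OCP2 did not differ beyond their spread (-0.08 ± 0.19, limma adjusted p = 0.841). Esam, an adhesion molecule of endothelial junctions that platelets also carry, read 9.33, 9.57, 9.74 and 9.25 in OCP4, 8.86, 9.06 and 8.56 in OCP1, 11.24, 12.02, 11.62 and 11.54 in OCP3, and 11.04, 10.63 and 10.39 in OCP2. Here OCP3 was the highest group without overlap, 1.89-fold above OCP2 (limma adjusted p = 0.00357), and its range of group means, 2.78 log2 units, was second to that of Mmrn1 among the members. Cd34, a sialomucin of endothelium that fibroblasts and blood progenitors also carry, lay between 13.40 and 13.74 on all 14 arrays, and its groups overlapped.

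Receptors for VEGF split into different orders. Kdr, VEGF receptor 2, the main signalling receptor of blood endothelium, read 9.78, 9.93, 9.99 and 9.75 in OCP4, 9.65, 10.003 and 9.91 in OCP1, 10.17, 10.52, 10.14 and 9.998 in OCP3, and 11.58, 10.88 and 10.64 in OCP2. OCP2 stood above all other arrays, and OCP4 and OCP1 had the same mean. Flt1, VEGF receptor 1, which binds VEGF with little signalling of its own, read 9.06, 9.13, 9.30 and 9.21 in OCP4, 8.90, 8.97 and 8.93 in OCP1, 10.03, 10.31, 10.34 and 10.18 in OCP3, and 10.56, 9.91 and 9.76 in OCP2. The CD73- groups were both high and overlapped (OCP3 minus OCP2 0.14 ± 0.14, limma adjusted p = 0.586), although this difference was called without OCP2 replicate 1 (adjusted p 0.0116). Flt4, VEGF receptor 3, the receptor of lymphatic growth, read 8.51, 8.54, 8.69 and 8.43 in OCP4, 8.12, 8.07 and 8.13 in OCP1, 10.01, 10.17, 9.61 and 9.49 in OCP3, and 9.46, 9.26 and 8.73 in OCP2. Each OCP3 array was above each OCP2 array, by a narrow margin at the edge, and OCP1 was uniformly low. Across this family, then, Kdr was highest in OCP2, Flt4 in OCP3, and Flt1 was not called different between them.

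Partners of the angiopoietin receptor varied more than the receptor itself. Tie1, the partner of the angiopoietin receptor, read 9.46, 9.57, 9.72 and 9.29 in OCP4, 8.91, 9.09 and 8.78 in OCP1, 9.91, 10.38, 9.98 and 9.74 in OCP3, and 11.04, 10.57 and 10.10 in OCP2. Ptprb, the phosphatase VE-PTP that acts on Tek and VE-cadherin, read 8.998, 8.92, 9.07 and 8.94 in OCP4, 8.50, 8.67 and 8.52 in OCP1, 9.29, 9.61, 9.30 and 9.10 in OCP3, and 10.68, 10.12 and 9.77 in OCP2. Both were lowest in OCP1 and had their highest means in OCP2, where the Ptprb arrays did not overlap with any other group. Tek itself, the angiopoietin receptor Tie2, had group means of 10.90 in OCP4, 10.90 in OCP1, 10.99 in OCP3 and 11.07 in OCP2. These lay within 0.17 log2 units, with SDs over arrays of 0.20 to 0.28. The difference of OCP1 from OCP2 was -0.17 ± 0.17 for Tek against -1.65 ± 0.20 for Tie1.

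**Figure D2:**
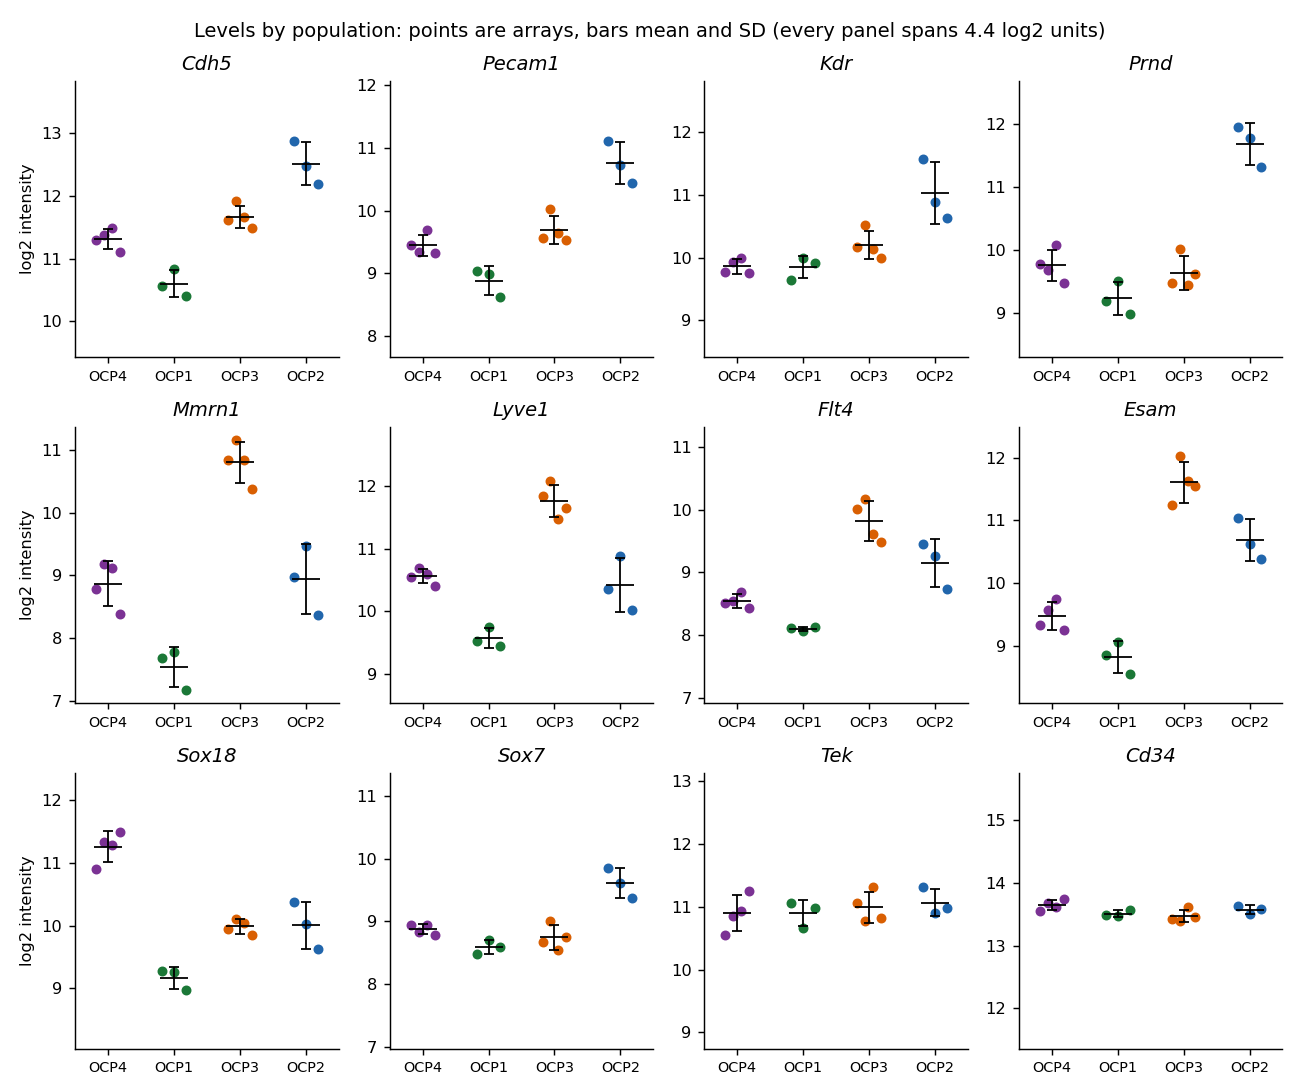
Each panel shows 1 gene: points are log2 intensities of single arrays, horizontal marks and bars the mean and SD of each population. Cdh5, Pecam1, Kdr and Prnd are highest in OCP2, Mmrn1, Lyve1, Flt4 and Esam in OCP3, Sox18 in OCP4 and Sox7 in OCP2, while the group means of Tek and Cd34 span 0.17 and 0.18 log2 units.

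The SoxF transcription factors, which act redundantly in vessel formation, did not run together. Sox18 read 10.91, 11.33, 11.29 and 11.50 in OCP4, 9.28, 9.26 and 8.97 in OCP1, 9.95, 10.11, 10.04 and 9.85 in OCP3, and 10.38, 10.02 and 9.63 in OCP2. The OCP4 arrays were above all others without overlap, OCP3 and OCP2 overlapped, and OCP1 was lowest. Its level in OCP4 was 2.41-fold that of OCP3 (1.27 ± 0.15, limma adjusted p = 1.17e-05), 4.25-fold that of OCP1 (2.09 ± 0.16, adjusted p = 2.28e-07) and 2.38-fold that of OCP2 (1.25 ± 0.16, adjusted p = 3.44e-05). Sox7 read 8.95, 8.84, 8.95 and 8.79 in OCP4, 8.49, 8.71 and 8.60 in OCP1, 8.68, 9.01, 8.54 and 8.76 in OCP3, and 9.85, 9.62 and 9.37 in OCP2, with OCP2 on top and the other groups within 0.28 log2 units of each other in their means. Sox17 was dimmer, between 7.35 and 8.40 on single arrays, and was likewise highest in OCP2 (OCP1 minus OCP2 -0.84 ± 0.12). In OCP4 against OCP3, Sox7 differed by 0.13 ± 0.11 (adjusted p = 0.379) and Sox17 by 0.11 ± 0.10 (adjusted p = 0.441). As background, Sox18 is also known from the dermal papilla of mouse hair follicles. Fli1, an ETS factor of endothelium and blood, ranged over 0.65 log2 units and was 10.26 ± 0.11 in OCP4, 10.44 ± 0.02 in OCP1, 10.72 ± 0.10 in OCP3 and 10.91 ± 0.19 in OCP2.

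Prox1, Lyve1, Mmrn1 and Flt4, the members on the list of lymphatic markers, had their highest mean in OCP3. Prox1, the transcription factor that sets lymphatic identity, read 8.64, 8.62, 8.73 and 8.28 in OCP4, 8.01, 8.31 and 8.11 in OCP1, 9.64, 9.56, 9.15 and 9.25 in OCP3, and 8.92, 9.10 and 8.79 in OCP2. Lyve1, a hyaluronan receptor of lymphatic vessels that some macrophages also carry, read 10.55, 10.69, 10.59 and 10.41 in OCP4, 9.52, 9.75 and 9.44 in OCP1, 11.83, 12.07, 11.47 and 11.65 in OCP3, and 10.35, 10.88 and 10.02 in OCP2. Mmrn1, multimerin 1, a secreted protein of platelets and of endothelium, in particular lymphatic, read 8.78, 9.18, 9.12 and 8.39 in OCP4, 7.68, 7.77 and 7.17 in OCP1, 10.84, 11.16, 10.83 and 10.37 in OCP3, and 8.98, 9.47 and 8.36 in OCP2. For Prox1, Lyve1 and Mmrn1 every OCP3 array was above every array of the other groups, and the OCP1 means were the lowest. Mmrn1 spanned 3.26 log2 units, the widest range of the 38 members, and was 9.57-fold lower in OCP1 than in OCP3 (limma adjusted p = 3.77e-07). Its levels in OCP4 and OCP2 did not differ beyond their spread (-0.07 ± 0.26, adjusted p = 0.886), nor did those of Lyve1 (0.14 ± 0.17, adjusted p = 0.621).

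The list of 6 lymphatic markers, 4 of which are members (Prox1, Lyve1, Flt4 and Mmrn1), had mean levels on single arrays of 9.71 to 10.06 in OCP4, 9.13 to 9.34 in OCP1, 10.81 to 11.28 in OCP3 and 9.79 to 10.41 in OCP2. Of the 6, 5 were higher in OCP3 than in OCP2 (6.63% of all genes), with a median difference of 1.00 log2 units, against -0.03 over all genes. Ccl21a, the chemokine of lymphatic endothelium, was among them, with 12.58 ± 0.32 in OCP3 and 11.17 ± 0.48 in OCP2 (1.41 ± 0.22, limma adjusted p = 5.10e-04). Pdpn, podoplanin, which osteoblast-lineage cells also carry, was the exception, with 11.98 ± 0.17 in OCP3 and 12.16 ± 0.02 in OCP2 (adjusted p = 0.143).

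G protein-coupled receptors of vessels and their partners had their highest means in different populations. Aplnr, the receptor of the peptide apelin, read 9.80, 9.77, 10.04 and 9.94 in OCP4, 9.41, 9.73 and 9.27 in OCP1, 9.37, 9.93, 9.44 and 9.52 in OCP3, and 11.46, 10.64 and 10.47 in OCP2, with OCP2 above every other array. Eltd1, an adhesion receptor of developing vessels, read 8.12, 8.21, 8.49 and 7.98 in OCP4, 7.57, 7.70 and 7.62 in OCP1, 8.06, 8.51, 8.04 and 8.17 in OCP3, and 9.91, 9.62 and 9.30 in OCP2. OCP2 stood more than 1 unit above OCP4 and OCP3 on average, and those had equal means. Calcrl, the receptor for adrenomedullin, read 10.35, 10.39, 10.44 and 10.32 in OCP4, 10.20, 10.36 and 10.26 in OCP1, 11.79, 11.65, 11.59 and 11.72 in OCP3, and 11.27, 11.50 and 11.34 in OCP2. OCP3 and OCP2 were both above OCP4 and OCP1, and OCP3 was 1.25-fold above OCP2 without overlap (limma adjusted p = 0.00405). The members Ramp2 and Ramp3, partners that set the ligand specificity of Calcrl, did not follow it. Ramp2 had its highest mean in OCP4 and its lowest in OCP1 (11.63 ± 0.03 in OCP4, 10.98 ± 0.11 in OCP1, 11.22 ± 0.09 in OCP3, 11.45 ± 0.07 in OCP2). Its difference of OCP4 from OCP2 was not called (0.18 ± 0.06, limma adjusted p = 0.0577). Ramp3 was lowest in OCP3 (8.93 ± 0.08 in OCP4, 9.16 ± 0.11 in OCP1, 8.58 ± 0.17 in OCP3, 9.20 ± 0.04 in OCP2). S1pr1, the receptor for sphingosine 1-phosphate, was 9.61 ± 0.17 in OCP4, 9.67 ± 0.09 in OCP1, 10.20 ± 0.15 in OCP3 and 10.06 ± 0.23 in OCP2. Apln, the ligand of Aplnr, was 10.01 ± 0.09 in OCP4, 10.07 ± 0.11 in OCP1, 9.72 ± 0.18 in OCP3 and 10.47 ± 0.38 in OCP2, so its low group was OCP3.

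Cd93 and Clec14a are C-type lectin receptors of endothelium that bind multimerin 2, the product of Mmrn2. Cd93 read 10.19, 10.24, 10.51 and 10.01 in OCP4, 9.65, 9.82 and 9.44 in OCP1, 10.78, 11.29, 10.77 and 10.87 in OCP3, and 12.14, 11.87 and 11.54 in OCP2. Mmrn2 read 8.56, 8.58, 8.57 and 8.35 in OCP4, 8.06, 8.21 and 8.08 in OCP1, 8.53, 8.98, 8.47 and 8.49 in OCP3, and 9.80, 9.81 and 9.26 in OCP2. Receptor and ligand were both highest in OCP2 without overlap and lowest in OCP1. Clec14a had its highest mean in OCP1 (8.75 ± 0.14 in OCP4, 9.16 ± 0.14 in OCP1, 8.99 ± 0.11 in OCP3, 9.08 ± 0.23 in OCP2), the sole member with its top mean there, and its range was 0.40 log2 units (F-test adjusted p = 0.0308). OCP1 was not called against OCP2 (0.08 ± 0.12, limma adjusted p = 0.764) or OCP3 (0.17 ± 0.11, adjusted p = 0.29). Only OCP4 was called lower than OCP1 (-0.40 ± 0.11, adjusted p = 0.0124).

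Among guidance, secreted and vessel-function genes, Prnd, which encodes Doppel, a prion-like protein of endothelium in the developing brain, read 9.77, 9.68, 10.08 and 9.48 in OCP4, 9.19, 9.51 and 8.98 in OCP1, 9.47, 10.02, 9.44 and 9.61 in OCP3, and 11.96, 11.79 and 11.32 in OCP2. The OCP2 arrays were more than 1 unit above all others, and OCP4 and OCP3 overlapped. A dimmer probe set of Prnd did not show this, with group means from 7.15 in OCP2 to 7.30 in OCP1. Robo4, a receptor that steadies endothelial junctions, read 8.98, 8.91, 9.19 and 8.91 in OCP4, 8.48, 8.87 and 8.48 in OCP1, 8.60, 9.19, 8.75 and 8.78 in OCP3, and 10.60, 9.89 and 9.57 in OCP2. Gpihbp1, which carries lipoprotein lipase to the capillary wall, read 8.60, 8.99, 8.84 and 8.71 in OCP4, 8.51, 8.76 and 8.49 in OCP1, 8.64, 8.93, 8.45 and 8.61 in OCP3, and 9.85, 9.83 and 9.36 in OCP2. For both genes OCP2 was the high group without overlap, and OCP3 overlapped with OCP4 and with OCP1. Egfl7, a secreted factor of endothelium, just missed the 1 log2 range (0.99), with 9.75 ± 0.13 in OCP4, 9.44 ± 0.05 in OCP1, 10.16 ± 0.22 in OCP3 and 10.43 ± 0.37 in OCP2. Esm1, a gene of tip cells, Vwf, the clotting carrier protein, and Nos3, the endothelial nitric oxide synthase, were dim in all groups and ranged over 0.41, 0.50 and 0.60 log2 units, each highest in OCP2.

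The first comparison asks how CD73+ cells differ from CD73- cells among Thy1- cells (OCP1 minus OCP2). Of the 38 members, 32 were lower in OCP1 (6.56% of all genes were) and 0 higher (4.43% of all genes), with a median difference of -1.09 log2 units against -0.01 over all genes. For 22 of the 32 the difference was at least 1 log2 unit, and the share of all genes at that cut was not counted. The difference was largest for Prnd (-2.46 ± 0.20, 5.52-fold lower, limma adjusted p = 4.21e-06), Cd93 (-2.21 ± 0.17, 4.62-fold lower, adjusted p = 3.58e-06) and Eltd1 (-1.98 ± 0.16, 3.95-fold lower, adjusted p = 4.21e-06). The 6 not called were Apln (-0.40 ± 0.15, adjusted p = 0.11), S1pr1 (-0.39 ± 0.12, adjusted p = 0.0549), Tek, Cd34, Ramp3 and Clec14a. The list of Schwann and nerve genes, none of them a member, was also lower in OCP1 (9 of 10), with list means of 8.58 to 9.06 in OCP4, 8.77 to 9.03 in OCP1, 9.86 to 10.23 in OCP3 and 9.93 to 10.26 in OCP2, and so were 6 of 9 skeletal muscle genes, with list means of 9.29 to 9.73 in OCP4, 9.20 to 9.64 in OCP1, 9.22 to 9.78 in OCP3 and 9.90 to 10.25 in OCP2; of the pericyte and smooth muscle genes 5 of 10 were. Of the skeletal and mesenchymal markers of the labelled cells, 8 of 10 were instead higher in OCP1 and 0 lower. The part of these lists in the result was not tested. Vwf and Nos3 were the calls that depended on single arrays: Vwf was lost without OCP4 replicates 1, 2, 3 or 4, OCP1 replicates 1, 2 or 3, OCP3 replicates 3 or 4 or OCP2 replicate 1 (adjusted p 0.0543 to 0.146), and Nos3 without OCP4 replicates 2, 3 or 4, OCP1 replicates 1, 2 or 3, OCP3 replicate 4 or OCP2 replicates 1 or 2 (adjusted p 0.0501 to 0.15). Apln was called without OCP2 replicate 3 (adjusted p 0.0334), and S1pr1 without OCP3 replicate 2 or OCP2 replicate 3 (adjusted p 0.0265 to 0.0404).

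The same question in Thy1+ cells (OCP4 minus OCP3) gave 14 members lower (13.6% of all genes) and 4 higher (14.2% of all genes), with a median of -0.19 log2 units against 0.04 over all genes. The 8 differences of at least 1 log2 unit were Esam (-2.13 ± 0.17, 4.39-fold lower, limma adjusted p = 3.31e-07), Mmrn1 (-1.93 ± 0.24), Calcrl (-1.31 ± 0.06), Flt4 (-1.28 ± 0.16), Emcn (-1.23 ± 0.17), Lyve1 (-1.20 ± 0.16), Flt1 (-1.04 ± 0.13) and, in the other direction, Sox18 (1.27 ± 0.15). The share of all genes at that cut was not counted here either. Besides Sox18, the higher genes were Ramp2 (0.41 ± 0.06, adjusted p = 8.68e-05), Ramp3 (0.35 ± 0.08, adjusted p = 0.00297) and Cd34 (0.18 ± 0.06, adjusted p = 0.0311). Cdh5 (-0.35 ± 0.14, adjusted p = 0.0743), Pecam1 (-0.25 ± 0.15, adjusted p = 0.244) and Prnd (0.11 ± 0.17, adjusted p = 0.665) were not called here. Single arrays decided some calls: Tie1 was lost without OCP4 replicates 1, 2 or 4, OCP1 replicates 1, 2 or 3, OCP3 replicates 1, 2 or 3 or OCP2 replicate 2 (adjusted p 0.0561 to 0.13), Cldn5 without OCP4 replicates 1, 2 or 4, OCP1 replicate 1, OCP3 replicates 2, 3 or 4 or OCP2 replicate 2 (adjusted p 0.0516 to 0.108), Egfl7 without OCP4 replicates 1, 2 or 4 or OCP3 replicates 2 or 3 (adjusted p 0.0633 to 0.0933) and Cd34 without OCP4 replicates 2 or 4 or OCP3 replicates 1, 2 or 4 (adjusted p 0.0682 to 0.0968). Conversely, Apln was called (higher) without OCP2 replicate 1 (adjusted p 0.0214), and as lower Cdh5 without OCP2 replicates 1 or 3 (adjusted p 0.0335 to 0.0454), Kdr without OCP2 replicate 1 (adjusted p 0.0322), Ptprb without OCP2 replicates 1 or 3 (adjusted p 0.0202 to 0.0453) and Clec14a without OCP4 replicate 4 or OCP2 replicate 1 (adjusted p 0.0448 to 0.0479).

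The 10 pericyte and smooth muscle markers, genes of the mural cells that wrap vessels, were also lower in OCP4 than in OCP3 (10 of 10, against 13.6% of all genes). Their list means were 10.32 to 10.70 in OCP4, 10.28 to 10.78 in OCP1, 12.25 to 12.50 in OCP3 and 11.04 to 11.17 in OCP2. Rgs5, a pericyte marker, averaged 9.53 ± 0.43 in OCP4, 8.58 ± 0.15 in OCP1, 13.28 ± 0.17 in OCP3 and 10.58 ± 0.08 in OCP2. Of the 10, 9 had their highest mean in OCP3, and Cspg4, the proteoglycan NG2, had it in OCP1 (12.68 ± 0.10 in OCP1 and 12.41 ± 0.07 in OCP3). Their part in the members' differences was not tested. Schwann and nerve genes were lower in OCP4 than in OCP3 for 9 of 10. Of the haematopoietic list 4 of 9 were higher in OCP4, against 14.2% of all genes. Its list means were 8.05 to 8.47 in OCP4, against 7.68 to 8.17 in OCP3.

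**Figure D3:**
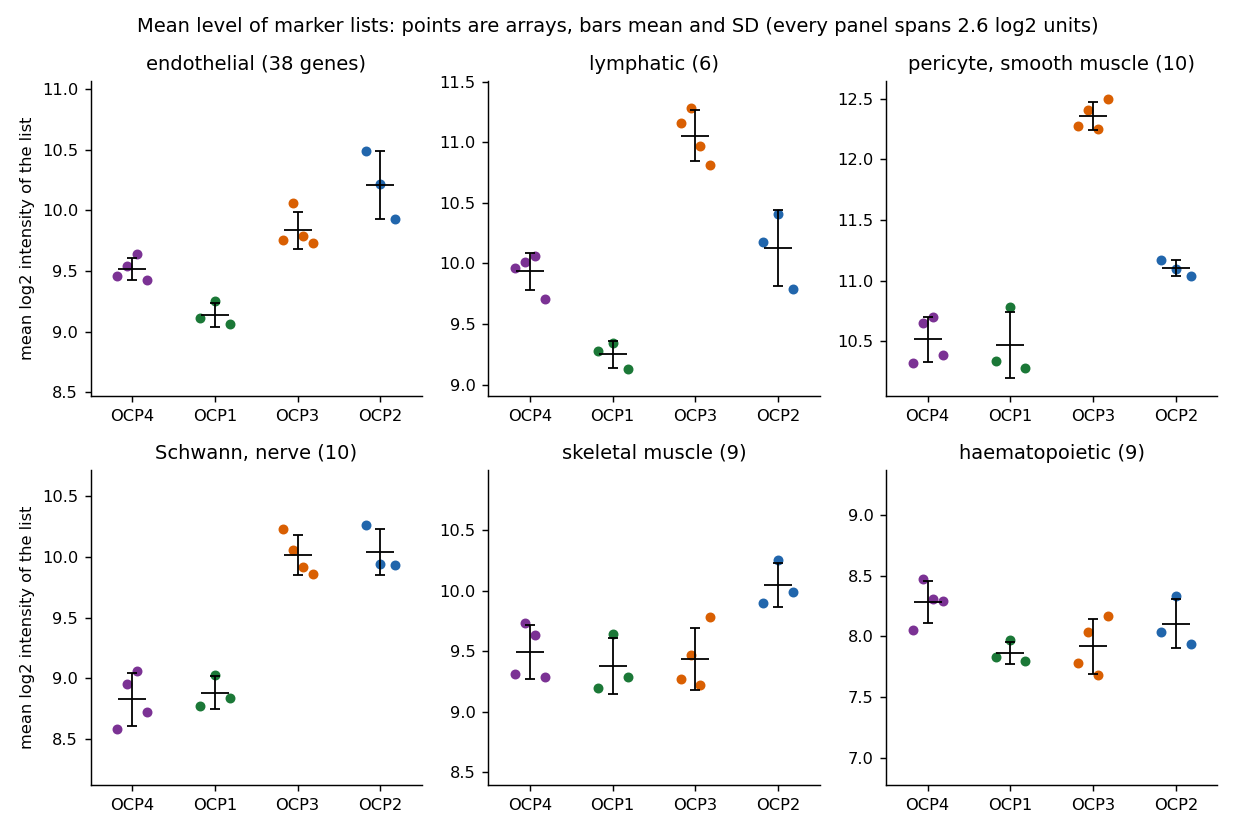
Points are the mean log2 intensity of each marker list on single arrays, bars the mean and SD of each population. The endothelial list has its highest mean in OCP2, the lymphatic and the pericyte lists in OCP3, and the Schwann list in both CD73- populations, while the haematopoietic list lies between 7.68 and 8.47 on every array.

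The CD73 difference was tested directly between the Thy1 backgrounds as an interaction, (OCP4 minus OCP3) minus (OCP1 minus OCP2). It was positive and called for 22 of 38 members (9.96% of all genes), and negative for 0 (8.05% of all genes), with a median over the members of 0.77 against 0.04 over all genes. Of these 22, 20 were lower in OCP1 than in OCP2, while 3 were lower and 3 higher in OCP4 than in OCP3. The interaction was largest for Prnd (2.58 ± 0.26, limma adjusted p = 9.08e-06), Sox18 (2.11 ± 0.23, adjusted p = 1.68e-05) and Eltd1 (1.99 ± 0.21, adjusted p = 1.40e-05). The dimmer probe set of Prnd gave -0.09. For Sox18 and Ramp2 the difference was called with opposite signs, 1.27 in Thy1+ and -0.84 in Thy1- cells for Sox18 and 0.41 and -0.47 for Ramp2, whose dimmer probe set gave an interaction of -0.01. By contrast 13 members were lower in CD73+ cells in both backgrounds, and for 10 of these (Flt1, Flt4, Emcn, Esam, Fli1, Egfl7, Calcrl, Mmrn1, Lyve1 and Prox1) the interaction was not called, with values from -0.54 (Mmrn1, adjusted p = 0.369) to 0.58 (Egfl7, adjusted p = 0.0713). Of the lymphatic list, 0 of 6 were called (values from -0.54 to 0.03), which does not show that their CD73 differences were equal. Of other lists, 9 of 10 pericyte and smooth muscle genes had a negative interaction, and 5 of 9 haematopoietic and 4 of 9 skeletal muscle genes a positive one, and their part in the result was not tested. Interaction calls were lost for Kdr without OCP4 replicates 2 or 3, OCP1 replicates 1 or 3, OCP3 replicates 1, 3 or 4 or OCP2 replicate 1 (adjusted p 0.0516 to 0.101), for Vwf without OCP4 replicates 1, 2 or 3, OCP1 replicates 1 or 3, OCP3 replicates 1, 3 or 4 or OCP2 replicate 1 (adjusted p 0.0509 to 0.0927), for Ramp3 without OCP4 replicates 2 or 3, OCP1 replicates 1 or 2, OCP3 replicates 1 or 4 or OCP2 replicates 2 or 3 (adjusted p 0.0502 to 0.0846) and for Apln without OCP1 replicates 1 or 2 (adjusted p 0.0586 to 0.0621). They were gained for Egfl7 without OCP3 replicate 2 or OCP2 replicate 3 (adjusted p 0.0239 to 0.0245), Nos3 without OCP3 replicate 2 or OCP2 replicate 3 (adjusted p 0.00923 to 0.0185), Esm1 without OCP2 replicate 3 (adjusted p 0.0346), Cd34 without OCP3 replicate 3 (adjusted p 0.0305) and, with a negative sign, Clec14a without OCP2 replicate 1 (adjusted p 0.0373).

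**Figure D4:**
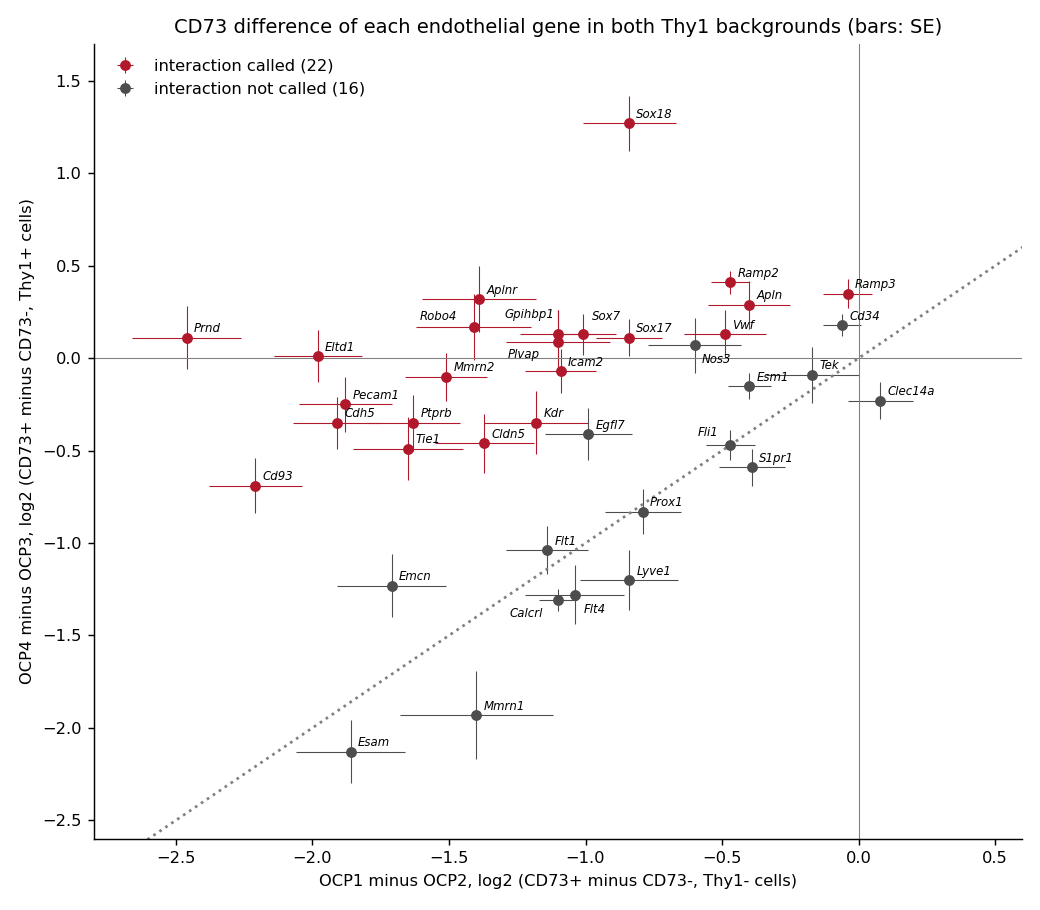
Each point is an endothelial gene; the horizontal axis is its log2 difference OCP1 minus OCP2 and the vertical axis OCP4 minus OCP3, with SE bars, and the dotted line marks equal differences. The 22 genes with a called interaction (red) lie above the line, most of them without a call on the vertical axis, whereas Esam, Mmrn1, Calcrl, Flt4, Lyve1, Prox1 and Flt1 lie near the line.

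Thy1+ cells were set against Thy1- cells among CD73- cells (OCP3 minus OCP2). Here 20 members were lower in OCP3 (9.48% of all genes) and 6 higher (6.63% of all genes), with a median of -0.50 log2 units against -0.03 over all genes. The 6 higher genes were Mmrn1 (1.86 ± 0.26, 3.63-fold, limma adjusted p = 1.51e-04), Lyve1 (1.34 ± 0.17, 2.53-fold, adjusted p = 7.34e-05), Esam (0.92 ± 0.19), Flt4 (0.67 ± 0.17, adjusted p = 0.0132), Prox1 (0.47 ± 0.13, adjusted p = 0.0273) and Calcrl (0.32 ± 0.07). The lower genes were led by Prnd (-2.05 ± 0.18, 4.14-fold lower, adjusted p = 2.64e-06), Eltd1 (-1.42 ± 0.15), Aplnr (-1.29 ± 0.20), Robo4 (-1.19 ± 0.20) and Pecam1 (-1.07 ± 0.16). Emcn, Sox18, Flt1, Cldn5, Tek, Cd34, Clec14a, Fli1, S1pr1, Egfl7, Tie1 (-0.57 ± 0.19, adjusted p = 0.0565) and Nos3 (-0.49 ± 0.16, adjusted p = 0.0557) were not called. Skeletal muscle genes were also lower in OCP3 (6 of 9) and pericyte and smooth muscle genes higher (7 of 10), and their part was not tested. Calls were lost for Flt4 without OCP2 replicate 3 (adjusted p 0.0691), for Prox1 without OCP3 replicates 1 or 2 or OCP2 replicates 1 or 3 (adjusted p 0.0638 to 0.113), for Ramp2 without OCP3 replicate 2 or OCP2 replicates 1 or 2 (adjusted p 0.0507 to 0.0888), for Vwf without OCP3 replicates 1 or 4 or OCP2 replicate 1 (adjusted p 0.0627 to 0.11) and for Esm1 without OCP3 replicates 1 or 4 or OCP2 replicates 1 or 2 (adjusted p 0.0687 to 0.143). They were gained for Tie1 without OCP3 replicate 2 or OCP2 replicate 3 (adjusted p 0.00777 to 0.0202) and for Nos3 without OCP3 replicate 2 or OCP2 replicate 3 (adjusted p 0.00774 to 0.0158).

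**Figure D5:**
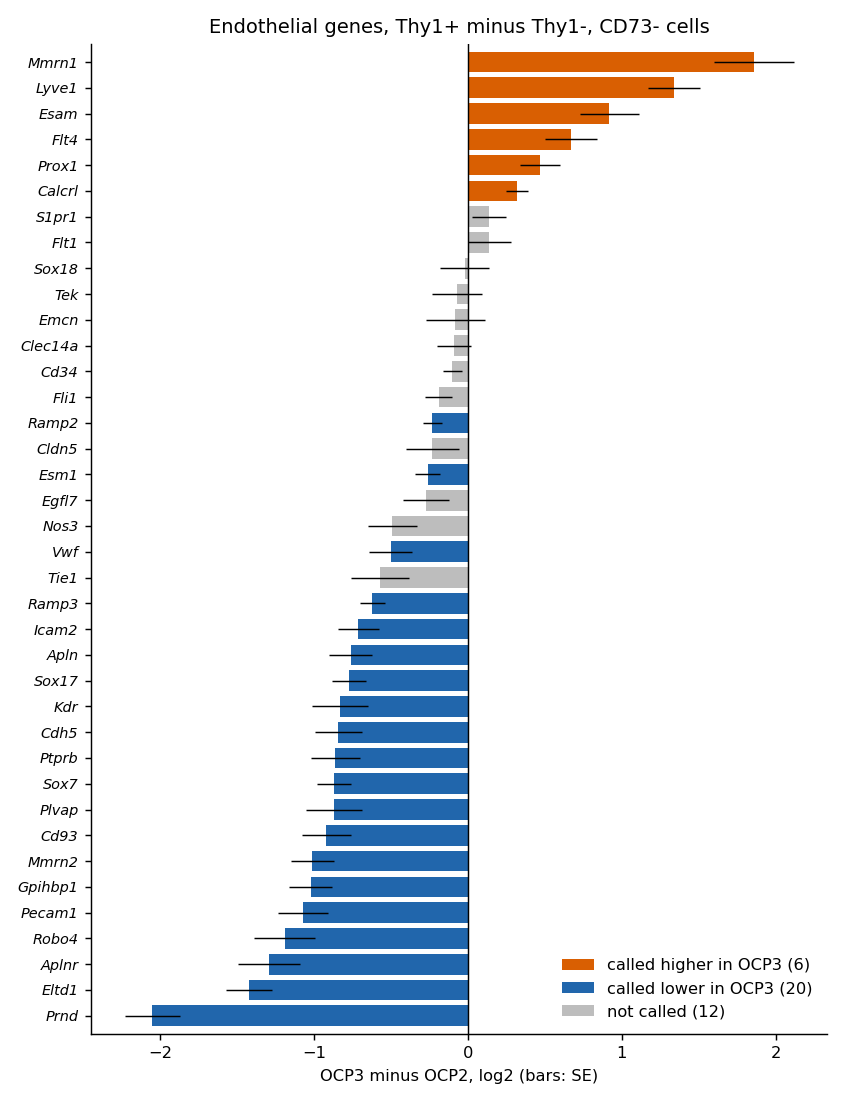
Bars give the log2 difference OCP3 minus OCP2 of each of the 38 endothelial genes with its SE, coloured by the call. The 6 genes called higher in OCP3 are Mmrn1, Lyve1, Esam, Flt4, Prox1 and Calcrl, and the bars of Prnd, Eltd1 and Aplnr reach farthest in the other direction.

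Among CD73+ cells (OCP4 minus OCP1), 14 members were higher in OCP4 (13.8% of all genes) and 2 lower (12.4% of all genes), with a median of 0.35 log2 units against 0.01 over all genes. Sox18 led with 2.09 ± 0.16, followed by Mmrn1 (1.32 ± 0.26, 2.5-fold higher, limma adjusted p = 0.00134), Lyve1 (0.99 ± 0.17, adjusted p = 5.18e-04), Cdh5 (0.71 ± 0.15, adjusted p = 0.00237), Cldn5 (0.68 ± 0.17, adjusted p = 0.00774) and Ramp2 (0.65 ± 0.06, adjusted p = 2.46e-06). The 2 lower genes were Clec14a (-0.40 ± 0.11, adjusted p = 0.0124) and Ramp3 (-0.24 ± 0.08, adjusted p = 0.0467). Kdr was not called (0.01 ± 0.18, adjusted p = 0.99). Of the haematopoietic list 4 of 9 genes were higher in OCP4, and their part was not tested. The 16 calls became 6 without OCP1 replicate 3, when 10 of them had adjusted p from 0.0501 to 0.206, and 10 without OCP1 replicate 1 or without OCP4 replicate 3; the 6 that held in every fit with an array left out were Cdh5, Sox18, Eltd1, Ramp2, Mmrn1 and Lyve1. With the arrays of OCP4 and OCP1 alone in the model there were 25 calls. Calls were gained, as higher, for Flt4 without OCP3 replicate 2 or OCP2 replicate 3 (adjusted p 0.0298 to 0.0483), Ptprb without OCP2 replicates 1 or 3 (adjusted p 0.011 to 0.0272), and Aplnr, Flt1 and Icam2 without OCP2 replicate 1 (adjusted p 0.0334 to 0.0355).

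In the last pairs both sort markers differed, first in OCP4 against OCP2. Of the members, 29 were lower in OCP4 (13.8% of all genes) and 1 higher (10.4% of all genes), with a median of -0.71 log2 units against 0.01 over all genes. The higher gene was Sox18, and the lower ones were led by Prnd (-1.94 ± 0.18, limma adjusted p = 2.05e-06), Cd93 (-1.61 ± 0.16, adjusted p = 2.95e-06) and Eltd1 (-1.41 ± 0.15, adjusted p = 5.08e-06). Calls were lost for Flt4 without OCP2 replicates 1 or 2 (adjusted p 0.063 to 0.0899), Apln without OCP4 replicate 1 or OCP2 replicate 1 (adjusted p 0.0714 to 0.122), S1pr1 without OCP2 replicate 1 (adjusted p 0.0562), Ramp3 without OCP4 replicates 1 or 4 or OCP2 replicates 2 or 3 (adjusted p 0.063 to 0.0768) and Clec14a without OCP4 replicates 1, 2 or 3, OCP1 replicate 1, OCP3 replicate 3 or OCP2 replicate 1 (adjusted p 0.0517 to 0.204). They were gained for Prox1 without OCP4 replicate 3 or OCP3 replicates 1 or 3 (adjusted p 0.0468 to 0.0474), Nos3 without OCP3 replicate 2 or OCP2 replicate 3 (adjusted p 0.0088 to 0.0498), Vwf without OCP2 replicates 2 or 3 (adjusted p 0.0371 to 0.0491) and, as higher, Ramp2 without OCP1 replicate 1 or OCP3 replicate 2 (adjusted p 0.0366 to 0.0391). Schwann and nerve genes were lower in OCP4 for 10 of 10, pericyte and smooth muscle genes for 7 of 10 and skeletal muscle genes for 6 of 9. In OCP1 against OCP3 the Schwann list and the pericyte list were each lower for 8 of 10, and the skeletal muscle list for 1 of 9. The part of these lists was not tested. In OCP1 against OCP3, 22 members were lower (12.5% of all genes) and 1, Ramp3 (0.59 ± 0.08, adjusted p = 9.58e-05), was higher (11.9% of all genes), with a median of -0.46 against 0.03 over all genes. The widest differences were those of Mmrn1 (-3.26 ± 0.26, 9.57-fold lower), Esam (-2.78 ± 0.19, 6.87-fold lower) and Lyve1 (-2.18 ± 0.17, 4.54-fold lower), whereas Kdr (-0.35 ± 0.18, adjusted p = 0.184), Robo4 (-0.22 ± 0.20, adjusted p = 0.482) and Aplnr (-0.10 ± 0.20, adjusted p = 0.779) were not called. In this pair calls were lost for Icam2 without OCP4 replicates 1, 2, 3 or 4, OCP1 replicates 1 or 3 or OCP3 replicates 2 or 3 (adjusted p 0.0507 to 0.146), Fli1 without OCP1 replicates 1, 2 or 3 or OCP3 replicate 2 (adjusted p 0.0588 to 0.0723), Mmrn2 without OCP1 replicates 1 or 3 (adjusted p 0.0522 to 0.065) and Ramp2 without OCP1 replicate 1 (adjusted p 0.0797), and gained for Kdr without OCP2 replicate 1 (adjusted p 0.047) and, as higher, Apln without OCP2 replicate 1 (adjusted p 0.0132).

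Arrays of the same population also differed in the members. In OCP4, replicate 3 was the highest array for 23 of 38 members (22.6% of all genes), and in OCP1 replicate 2 for 28 (34.8% of all genes). In OCP3, replicate 2 was the highest for 30 (41.6% of all genes), and in OCP2 replicate 1 for 30 (48.7% of all genes). Other lists differed on the same arrays: in OCP1 the pericyte and smooth muscle list averaged 10.78 in replicate 2, against 10.34 and 10.28 in the others, and the skeletal muscle list 9.64, against 9.20 and 9.29. Their part in the members' values was not tested. Of the 4 lymphatic members, 3 were instead highest in OCP2 replicate 2 (24.6% of all genes). In OCP1 and in OCP3, 3 of the 4 were highest in replicate 2, like most members. In OCP4, 2 were highest in replicate 2 and 2 in replicate 3. Over all 14 arrays, the members with the highest correlation with Cdh5 were Cd93 (r = 0.984), Tie1 (0.983), Pecam1 (0.980) and Ptprb (0.977), and those with the lowest were Ramp3 (-0.054), Cd34 (0.016), Clec14a (0.030) and Sox18 (0.220). Lyve1 (0.434) and Mmrn1 (0.497) stood between. Among genes outside the list, the 10 most like Cdh5 were Rasgrp3 (0.984), Afap1l1 (0.981), Myct1 (0.969), 4930578C19Rik (0.965, now Dipk2b), St8sia4 (0.964), Pip5k1b (0.951), Bcl6b (0.947), Gimap5 (0.941), Pde2a (0.932) and Enpp3 (0.930). These correlations are a description of 14 arrays that share the group structure. Rasgrp3, for example, averaged 8.77 in OCP4, 8.18 in OCP1, 9.25 in OCP3 and 10.03 in OCP2.

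A further 42 endothelial genes outside the list were counted beside the members. In OCP1 against OCP2, 26 were lower (6.56% of all genes) and 5 higher (4.43% of all genes). In OCP4 against OCP3, 17 were lower (13.6% of all genes) and 5 higher (14.2% of all genes). In OCP3 against OCP2, 13 were lower (9.48% of all genes) and 11 higher (6.63% of all genes). The median was -0.03 log2 units, against -0.50 for the 38 members. At least 1 pairwise difference of 1 log2 unit or more was called for 19 of the 42, a size not counted over all genes. Those lower in OCP1 than in OCP2 by that much were the adhesion receptor Gpr116 (-1.81 ± 0.21), Myct1 (-1.59 ± 0.20), the Notch ligand Dll4 (-1.43 ± 0.16), the sialomucin Podxl (-1.39 ± 0.17), Cd38 (-1.32 ± 0.09), Cyyr1 (-1.31 ± 0.20), Hey2 (-1.28 ± 0.05), the Notch target Hey1 (-1.13 ± 0.08), Rasip1 (-1.05 ± 0.17) and Ecscr (-1.01 ± 0.10), with limma adjusted p from 5.83e-09 to 8.43e-04. Dll4, Podxl, Cyyr1 and Cd38 were also lower by at least 1 log2 unit in OCP3 than in OCP2.

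Other genes of this second list had their highest mean in OCP3. Hey2, a Notch target of arterial endothelium and smooth muscle, averaged 10.03 in OCP4, 8.20 in OCP1, 11.23 in OCP3 and 9.48 in OCP2. Nr2f2, the factor COUP-TFII of veins, lymphatics and mesenchyme, averaged 10.01 in OCP4, 9.99 in OCP1, 11.95 in OCP3 and 10.74 in OCP2. Ets1 averaged 10.49 in OCP4, 10.34 in OCP1, 11.70 in OCP3 and 10.94 in OCP2, and Procr, the protein C receptor, 8.63 in OCP4, 8.98 in OCP1, 10.57 in OCP3 and 9.81 in OCP2. Each of these 4 was lower in OCP4 than in OCP3 by at least 1 log2 unit (-1.20 for Hey2, -1.93 for Nr2f2, -1.21 for Ets1 and -1.93 for Procr, with limma adjusted p from 9.08e-11 to 8.19e-09). Foxc2, a factor of lymphatic valves that mesenchyme also carries, was lowest in OCP4, with 8.92 in OCP4, 10.41 in OCP1, 10.95 in OCP3 and 10.06 in OCP2. The scavenger receptor Stab1 and the receptor Notch1 were lower in OCP1 than in OCP3 (-1.35 and -1.12). Erg, an ETS factor of endothelium that embryonic cartilage also carries, was higher in OCP1 than in OCP3 (1.33 ± 0.11, adjusted p = 6.91e-07). The adhesion molecule Vcam1 was higher in OCP4 than in OCP3 (1.19), and Thbd, thrombomodulin, was higher in OCP4 than in OCP1 (1.18).

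Of 12 genes listed as vessel ligands or as enzymes that make them, 12 were called by the F-test, against 39.5% of all genes. In OCP4 against OCP3, 5 were higher (14.2% of all genes) and 5 lower (13.6% of all genes). Figf, which encodes VEGF-D, a ligand of Flt4 in mouse, averaged 12.20 in OCP4, 11.23 in OCP1, 10.45 in OCP3 and 10.12 in OCP2. It was 3.34-fold higher in OCP4 than in OCP3 (limma adjusted p = 1.69e-08), a comparison in which Flt4 was lower. Vegfc, the main lymphatic growth factor, averaged 10.01 in OCP4, 9.39 in OCP1, 9.50 in OCP3 and 9.08 in OCP2, and Vegfa, the ligand of Kdr and Flt1, 11.67 in OCP4, 11.99 in OCP1, 11.71 in OCP3 and 11.90 in OCP2. Angpt2, a context-dependent antagonist of Tek, averaged 9.76 in OCP4, 8.97 in OCP1, 11.67 in OCP3 and 9.95 in OCP2 and was 3.28-fold higher in OCP3 than in OCP2 (adjusted p = 5.65e-09). Angpt1, the agonist, averaged 8.54 in OCP4, 9.65 in OCP1, 10.27 in OCP3 and 9.61 in OCP2. Both angiopoietins thus had their highest mean in OCP3, while their receptor Tek was not called. Pdgfb, by which endothelium recruits pericytes, averaged 9.20 in OCP4, 8.82 in OCP1, 9.90 in OCP3 and 10.15 in OCP2, and was lower in OCP1 than in OCP2 (-1.33 ± 0.16, adjusted p = 1.26e-04). The Robo ligand Slit3 was highest in OCP4, with 13.13 in OCP4, 11.92 in OCP1, 12.33 in OCP3 and 11.82 in OCP2.

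For Prnd and Ramp2 the table holds a dimmer probe set in addition to the brighter ones described. The dimmer Prnd set averaged 7.23 in OCP4, 7.30 in OCP1, 7.17 in OCP3 and 7.15 in OCP2, and the dimmer Ramp2 set 6.51, 6.51, 6.37 and 6.36 in the same order, so neither showed the pattern of the brighter set. Over all genes, the share of calls that were higher was 51.2% in OCP4 against OCP3, 40.3% in OCP1 against OCP2, 41.2% in OCP3 against OCP2 and 43% in OCP4 against OCP2. With each array centred on its median these shares were 61.8%, 61.1%, 52.5% and 62.1%. The endothelial counts under that centring were 14 lower and 4 higher in OCP4 against OCP3, and 31 lower and 0 higher in OCP1 against OCP2. They were 18 lower and 6 higher in OCP3 against OCP2, and 27 lower and 2 higher in OCP4 against OCP2.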

How the data were processed

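Mouse Gene 1.0 ST arrays were hybridised with biotin-labelled cRNA made from total RNA of sorted cells, per the labels' protocols. RMA and limma are named in the submitters' processing notes without versions, and the sources used here give neither a genome build nor a batch or scan day. In the deposited values each probe set has 1 linear intensity per array. Logarithms were taken here, although the planned test had assumed values already on the log2 scale. The authors' deposited comparison table, from which the gene symbols were read, holds log2 differences and adjusted p-values, signed as OCP4 minus the other group. It was tied to the value table by row position, checked on the mean log2 levels (largest gap 5.17e-09). Array medians lay between 328.1 and 346.8 intensity units, and the number of arrays limits the precision.

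Of 35556 probe sets, 25228 carried a usable symbol, after 26 symbols turned into dates were set aside. They gave 21734 genes, with the brightest probe set kept for each. Groups were those of the labels. A limma 3.58.1 model (R 4.3.3, statmod 1.5.0) with a coefficient for each population used the 14 arrays together and default eBayes settings. Each comparison was corrected over 21734 genes (Benjamini-Hochberg) and called at 0.05. The script was tested on simulated data. Since separate embryos or litters are not named for the replicates, the tests rest on a spread that may be technical. Replicates correlated at 0.9955 to 0.9979 over genes, below identity in every pair.

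The members, the role groups and the marker lists were chosen with earlier results of these data known. Genes named were the members, other listed endothelial genes called by at least 1 log2 unit, the listed ligands and the 10 genes most like Cdh5. Values on every array are given for members called by the F-test with group means at least 1 log2 unit apart. The alternatives were a replicate block, each array left out, median centring, quantile normalization run again, dim genes dropped, other probe sets, a trended robust variance prior, array weights and pairwise arrays alone.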

Additional observations from a re-analysis of the deposited data

Results flagged for a closer look

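For 22 endothelial genes the difference between CD73+ and CD73- cells differed between the Thy1 backgrounds by the interaction test of limma. The interaction, (OCP4 minus OCP3) minus (OCP1 minus OCP2) in log2 units, was 2.58 for Prnd, 2.11 for Sox18, 1.99 for Eltd1, 1.71 for Aplnr, 1.63 for Pecam1, 1.58 for Robo4, 1.55 for Cdh5, 1.52 for Cd93, 1.40 for Mmrn2, 1.28 for Ptprb, 1.22 for Gpihbp1, 1.19 for Plvap, 1.15 for Tie1, 1.15 for Sox7, 1.02 for Icam2, 0.96 for Sox17, 0.91 for Cldn5, 0.88 for Ramp2, 0.83 for Kdr, 0.70 for Apln, 0.62 for Vwf and 0.39 for Ramp3. All 22 were positive, and Sox18 and Ramp2 were called with opposite signs in the 2 backgrounds.

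On single arrays, 3 of 76 tested sets of 4 arrays held a value far from the others of its group by Dixon's criterion, about the share that chance gives (1 in 20). Apln read 9.88 in OCP4 replicate 1, against 10.05 to 10.06 in the other OCP4 arrays. Mmrn2 read 8.35 in OCP4 replicate 4, against 8.56 to 8.58 in the others, and 8.98 in OCP3 replicate 2, against 8.47 to 8.53 in the others.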

How the results depend on the processing

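Under 23 alternative settings, 14 of which leave out 1 array, 5746 of 6052 values of single members kept their direction and side of the threshold, 212 no longer passed it, 85 newly passed it and 9 turned their sign. The 9 came from the dimmest probe set of Prnd and Ramp2. For Prnd it gave 0.15 in OCP1 minus OCP2, -0.07 in OCP4 minus OCP1, 0.02 in OCP3 minus OCP2, 0.08 in OCP4 minus OCP2 and -0.09 in the interaction. For Ramp2 it gave 0.15 in OCP1 minus OCP2, 0.02 in OCP3 minus OCP2, 0.14 in OCP1 minus OCP3 and -0.01 in the interaction. The cause was not tested. Of 364 counts, 358 stayed within 1.5 times the reported one. The members called in OCP4 minus OCP1 numbered 16, 25 with only the arrays of the 2 groups, and 6 to 19 with 1 array left out. The count of all genes called OCP1 minus OCP2 was 2388, and 1477 to 2516 with 1 array left out, with the low end without OCP1 replicate 1 and 1486 without OCP2 replicate 2. Arrays of the same replicate number correlated at -0.419 to 0.395 in their deviations from the group means, above 0.1 in 8 of 19 pairs. Between arrays numbered 2 these correlations ran from -0.096 (OCP2 with OCP3) to 0.395 (OCP3 with OCP4). Whether equal numbers share a litter or a day is not given in the labels. Correlations of both signs cannot decide it. With a replicate block the members called numbered 18 in OCP4 minus OCP3, 30 in OCP1 minus OCP2, 17 in OCP4 minus OCP1, 23 in OCP3 minus OCP2, 29 in OCP4 minus OCP2, 22 in OCP1 minus OCP3, 19 in the interaction and 34 in the F-test, and 2 of 14 arrays were most like an array of their own number. Sox17, Esm1, Vwf and Nos3 were dim in every group, where small differences are hardest to measure.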
